A study of Danio rerio with 67 samples.

Results

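Mature oligodendrocytes of the intact adult zebrafish spinal cord fell into cells with and cells without transcripts of apoeb, and these sides were set against each other. All cells came from sham-operated adult Tg(olig2:eGFP) fish, in which olig2 regulatory sequence drives green fluorescent protein. The cord was exposed but left intact, pieces of about 0.5 mm from 9 cords were pooled, and living fluorescent cells were sorted into single wells. Of the 35 sham cells, 29 carried plp1b, a proteolipid protein gene of myelin, at 10000 CPM or more, where CPM is the gene's count scaled by the total count of the cell. Of these 29 cells, 20 held 5 or more apoeb reads and are called apoeb-detected, and 9 held fewer than 5 and are called apoeb-undetected. The series has 67 cells in all, and the lesion cells were not used. Both sides were chosen by their apoeb and plp1b counts, so the levels of these genes are descriptions. All cells of the sham group came from 1 pool of cords, the cells are not biological replicates, and no difference below carries a test.

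apoeb (ENSDARG00000040295, GRCz10 chromosome 16, positions 24045712 to 24048429) encodes apolipoprotein E. Apolipoprotein E is a secreted carrier that loads cholesterol and phospholipid onto lipoprotein particles, which cells take up through receptors of the LDL receptor family. In the mammalian central nervous system it is known mainly from astrocytes and from microglia, and the zebrafish gene is widely used as a marker of microglia and macrophages. Oligodendrocytes make most of their own cholesterol, the lipid on which compact myelin depends. plp1b (ENSDARG00000011929) lies on chromosome 5 at positions 22764321 to 22776298.

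The apoeb-detected cells held 6 reads at the lowest, 312 at the median and 1798 at the highest, against 0, 0 and 2 reads in the apoeb-undetected cells. In CPM the apoeb-detected cells ranged over 8.39, 621 and 3051 (lowest, median, highest), and the apoeb-undetected cells over 0, 0 and 3.73. Most cells lay far from the threshold. The cells just inside it were G04 with 6 reads and E04 with 9 reads, followed by H02 with 40 and D03 with 151, and the cells just outside it were F06 with 2 reads and C06 with 1. No apoeb read was counted in 7 of the 29 cells. At 100 CPM or more stood 17 cells, the lowest of them at 323 CPM. By the 5-read rule 69.0% of the 29 cells carried apoeb (exact Clopper-Pearson 95% interval 49.2 to 84.7%). That interval treats the cells as independent draws, although they share 1 pool, and covers no other variation. With every cell thinned to 250145 reads the count was 18 of 29.

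**Figure D1:**
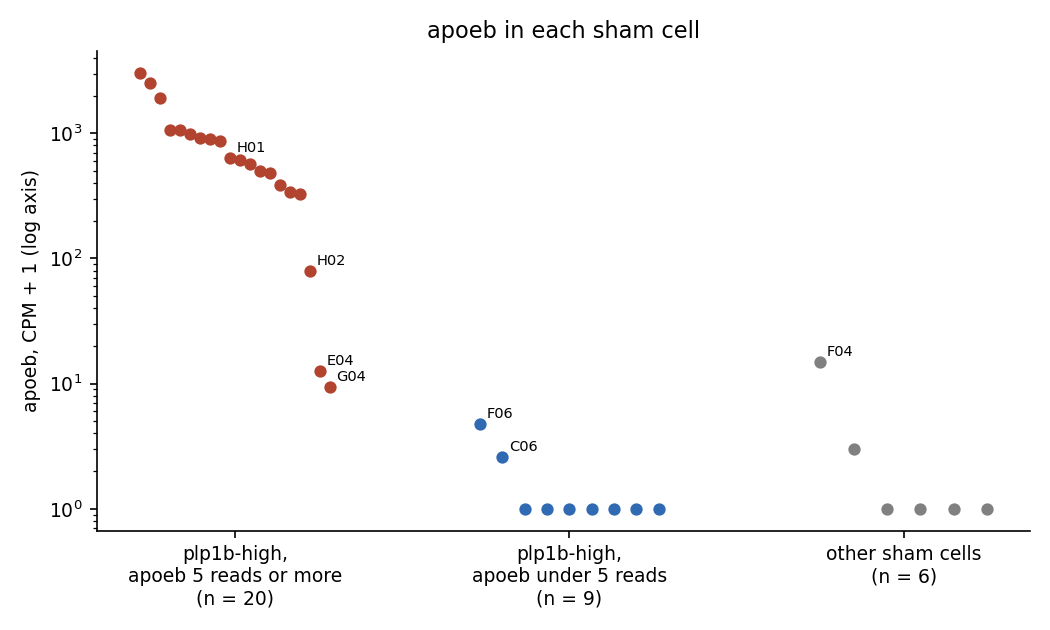
apoeb in each of the 35 sham cells as CPM + 1 on a log axis, with 1 point per cell, for the 20 apoeb-detected oligodendrocytes, the 9 apoeb-undetected oligodendrocytes and the 6 other sham cells. Most apoeb-detected cells lie above 300 CPM, while wells H02, E04 and G04 lie below 100 CPM.

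The lowest apoeb-detected cells lay near the highest cell without the plp1b mark. The 6 other sham cells held 0 to 6 apoeb reads, and the highest of them, F04, stood at 13.95 CPM, above G04 and E04. F04 lies beside F05, the well with 1798 apoeb reads, and its 6 reads were 0.334% of that number, which the library sharing described below also touches. plp1b separated the members from these 6 cells with a wide gap, the lowest member at 28633 CPM and the highest of the other cells at 146 CPM.

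Libraries in some neighbouring wells shared genes, and this touches the lowest apoeb-detected cells. H01 and H02, both apoeb-detected, correlated at 0.838 over all genes in log2(CPM + 1), and the next highest pair of the 29 cells at 0.543. Of the 947 genes with 100 or more reads in H01, 100% had a read in H02, and of 1075 such genes in H02, 99.2% had a read in H01. The other 810 ordered pairs had a median of 46.2% and a highest value of 95.9%, for the genes of C03 in B02. The H01 over H02 ratios formed separate clusters, with 552 genes at least 4-fold higher in H01 (median log2 ratio 3.45), 620 genes at least 4-fold higher in H02 (median log2 ratio -4.76) and 466 genes between. apoeb lay at 3.01 on that scale, between the 5th and 95th percentiles of the H01-led genes, 2.73 and 4.15. The part of this sharing in the 40 reads of H02 was not tested. Counts of cells below hold both wells, also for genes at the ratios of these clusters, and the part of sharing in them was not tested.

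**Figure D2:**
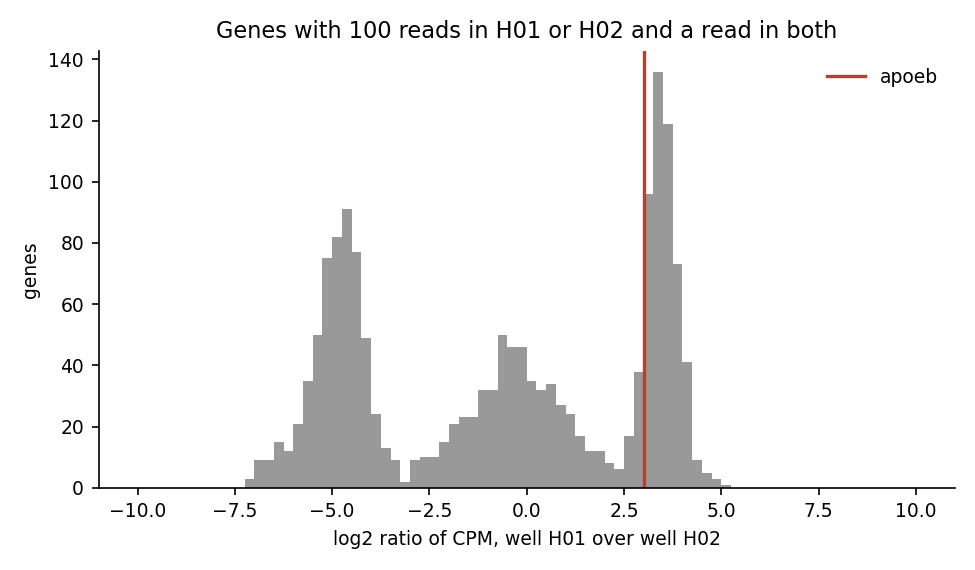
Number of genes by the log2 ratio of CPM in well H01 over CPM in well H02, for 1638 genes with 100 or more reads in either well and a read in both. The genes form 3 clusters, and apoeb (vertical line, 3.01) lies in the cluster led by H01.

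Weaker sharing was found in other wells, among them those of plate columns 5 and 4. Among genes with 100 or more reads in a column 5 well and a read in at most 5 of the other sham cells, 45.6 to 63.7% had a low read count in the column 4 well of the same row, in all 5 rows that held both wells. A low read count was any read up to 5% of the count in the other well. The opposite direction gave 1.38 to 2.40%, and the median of all remaining pairs below 40% was 2.81%. The counts shared between these columns were small, with medians of 0.412 to 0.565% of the reads in the column 5 well. G04 held 2.67% of the apoeb reads of its neighbour G05, above those medians, and the column 5 neighbour of E04 had no apoeb read. D04, beside E04 in column 4, held 798 apoeb reads. D04 to E04 was not among the pairs at 40% or more given below, and the part of D04 in the 9 reads of E04 was not tested. Among all 1190 ordered pairs of sham cells compared this way, 40 reached 40% or more. B02, the apoeb-detected cell with the most genes, was the receiving well in 31 of these, with low reads for 40.1 to 55.5% of the other cell's genes. The remaining 4 ran from H02 to H01 (81.3%), F04 to F03 (77.9%), D01 to E01 (49.0%) and E02 to F02 (44.3%). As a setting for the other genes, every count at or below 2% of the count in the partner well was set to 0 over these 40 pairs. From H02 to H01 the median shared count was 2.56%, above that cut, and the direction H01 to H02 was not among the pairs. Most genes led by H01 lay above the 5% limit in H02, so the measure could miss sharing in that direction. This setting bears on no apoeb call, since G04 lay above that 2% and the column 5 neighbour of E04 held no apoeb.

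Myelin genes were abundant on both sides, although the labels call the sorted cells progenitors. plp1b itself stood at 31766, 46431 and 78151 CPM (lowest, median, highest) in apoeb-detected cells, against 28633, 43860 and 75970 CPM in apoeb-undetected cells. mbpa, which encodes myelin basic protein, ranged over 21076, 32841 and 50726 CPM in apoeb-detected cells, against 17513, 35781 and 68183 CPM in apoeb-undetected cells. Each of the 29 cells carried these major myelin transcripts, and the sides overlapped through their whole range. cd59a, a membrane regulator of complement abundant in zebrafish myelinating cells, had a log2 ratio of apoeb-detected over apoeb-undetected cells of 0.01. The ratio was -0.14 for cldnk, a claudin of fish myelin, and -0.06 for mag, myelin-associated glycoprotein. The log2 ratios here are of summed counts as CPM with 1 CPM added to each side. Over the 18 measured oligodendrocyte markers the median log2 ratio was 0.02.

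The olig2 transcript averaged lower on the apoeb-detected side without separating the cells. OLIG2, the lineage transcription factor, ranged over 2572, 7323 and 17683 CPM in apoeb-detected cells, against 5543, 9917 and 17653 CPM in apoeb-undetected cells, a log2 ratio of -0.43. The difference was -0.81 in plate rows F to H and 0.00 in rows B to E. MYRF, the transcription factor that drives myelin genes, had 5 or more reads in 18 of 20 apoeb-detected cells and 4 of 9 apoeb-undetected cells, with a log2 ratio of 0.33. Of 25 matched progenitor markers only 5 reached 50 reads over the cells and 7 had no read in any of them, among them PDGFRA, CSPG4 and GPR17. Of these 5, 4 were at least 2-fold higher in apoeb-detected cells, with a median log2 ratio of 4.35, but LHFPL3, luzp2, ascl1a and SEMA5A were found in 1 to 3 apoeb-detected cells each and in none of the apoeb-undetected cells. PTPRZ1, the receptor phosphatase found in 13 of 20 and 6 of 9 cells, had a log2 ratio of -0.71. The summed progenitor level was 575 CPM at the median in apoeb-detected cells and 923 CPM in apoeb-undetected cells.

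Markers of microglia, the cell type best known for apoeb, were nearly absent from both sides. Of 34 matched microglia markers, 24 had no read in any of the 29 cells, among them csf1ra, SPI1, P2RY12, c1qa, apoc1 and all MPEG1 copies. The summed microglia level was 0, 0 and 694 CPM (lowest, median, highest) in apoeb-detected cells, against 0, 0 and 1.72 CPM in apoeb-undetected cells. Only 3 markers reached 50 reads: AIF1L in 2 apoeb-detected cells, and cd74b and grna in 1 apoeb-detected cell each, with none in apoeb-undetected cells. A single apoeb-detected cell, D03, carried 3 or more of the markers, and none of the apoeb-undetected cells did. D03 held cd74b at 357 CPM, grna at 289 CPM and AIF1L at 27.8 CPM. nccrp1, the measured gene of the neutrophil and lymphocyte list, had 5 or more reads in 7 of 20 apoeb-detected cells and in 0 of 9 apoeb-undetected cells. These 7 cells held both H01, at 27.7 CPM, and H02, at 816 CPM, and the part of their sharing was not tested. Endothelial markers summed to at most 432 CPM in any apoeb-detected cell and 13.7 CPM in any apoeb-undetected cell. apoea, the paralogue of apoeb, had no read in any of the 29 cells.

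Depth was alike and complexity was not. Total reads were 250145, 543633 and 771417 (lowest, median, highest) in apoeb-detected cells, against 266451, 582101 and 712784 in apoeb-undetected cells. Genes with a read numbered 1510, 2291 and 6198 in apoeb-detected cells, against 1523, 1888 and 2577 in apoeb-undetected cells, and B02 was the cell with 6198. The sharing described above fell mostly on the apoeb-detected side. Its receiving wells there were B02, H04, G04, D04, H01, E01 and E04, with 6198, 3310, 3163, 3010, 2937, 2660 and 2247 genes. On the apoeb-undetected side only F02, with 2577, received. H02 with 3143 and C03 with 2968 were not receiving wells by that measure. For H02 the measure could not decide, since most genes led by H01 lay above its 5% limit. The part of sharing in gene number was not tested. After thinning to equal reads the medians were 2052.5 genes in apoeb-detected cells and 1608 in apoeb-undetected cells. The share of mitochondrial reads was 1.53% at the median in apoeb-detected cells and 1.52% in apoeb-undetected cells. Averaged over the 674 genes found in at least 50% of the cells, log2(CPM + 1) was 6.76 ± 0.82 in apoeb-detected cells and 6.12 ± 0.63 in apoeb-undetected cells (SD over 20 and 9 cells). This offset of 0.64 may bear on the gene counts below, and its part in them was not tested. The gene lists showed an offset in the same direction, since 25 of 26 list scores (the mean log2(CPM + 1) of a list's genes) were higher on the apoeb-detected side.

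The whole transcriptome sets the background for any gene. Of 7845 genes with 50 or more reads over the 29 cells, 3740 (47.7%) were at least 2-fold higher in apoeb-detected cells and 1854 (23.6%) at least 2-fold lower. The 7171 genes found in under 50% of the cells had a median log2 ratio of 1.18. Of these, 3678 stood higher in apoeb-detected cells by 2-fold or more, and 1811 lower by as much. The apoeb-detected side holds 20 of the 29 cells, so a gene read in few cells can fall there more often by cell number alone. The part of these unequal sides in the 47.7 and 23.6% was not tested, here or where gene lists are set beside them below. Among the 674 genes with 5 or more reads in at least 50% of the cells, 62 (9.2%) were at least 2-fold higher, 43 (6.38%) at least 2-fold lower, and the median log2 ratio was 0.01. By the share of cells with 5 or more reads, 93 genes (1.19%) were at least 40 percentage points higher in apoeb-detected cells and 14 (0.178%) at least 40 points lower. Setting the shared low counts to 0 left 72 genes higher and 17 lower by that measure. That cut left many counts shared by H01 and H02 in place, so it cannot show how far their sharing bears on these numbers. Pairs of cells resembled each other about equally within and across sides: the median correlation was 0.414 within apoeb-detected cells, 0.369 within apoeb-undetected cells and 0.384 between them.

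The 12 genes selected for the largest higher ratios were absent or nearly absent from the apoeb-undetected cells. They were drawn from 226 of the 7845 genes, which met every condition of the naming rule. Among these conditions, the higher direction was kept in the mean, the median, plate rows B to E, rows F to H and without the highest cell. USP5, a deubiquitinase that recycles free ubiquitin chains, ranged over 0, 163 and 1266 CPM in apoeb-detected cells, against 0 reads in all 9 apoeb-undetected cells. It had 5 or more reads in 11 of 20 cells, and its summed level was at least 602-fold higher against a floor of 3 reads over the apoeb-undetected side. Here and below, folds against this floor cover counting error only and move with which cells fall on each side. A gene is also absent from 9 cells more easily than from 20, and the part of this in such folds was not tested. PKM, pyruvate kinase, had 5 or more reads in 11 of 20 apoeb-detected cells and 0 of 9 apoeb-undetected cells, and was at least 495-fold higher on the same floor. The splicing factor sfpq was found in 10 and 0 cells, the axonal transport adaptor MAPK8IP3 in 10 and 0, and the microRNA silencing factor TNRC6A in 10 and 0, of 20 and 9 cells. Levels of these genes reached 781 to 1266 CPM in single apoeb-detected cells, while 9 or 10 of the apoeb-detected cells fell under 5 reads.

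The other 7 higher genes showed the same pattern of presence in 10 to 14 of the 20 apoeb-detected cells. sumo3a, a small ubiquitin-like modifier, APLP1, a relative of the amyloid precursor protein, wbp1 and SEC61B, a subunit of the channel through which proteins enter the endoplasmic reticulum, were found in 0 of 9 apoeb-undetected cells. RABGGTB, which attaches lipid to Rab proteins, was found in 10 apoeb-detected cells and 1 apoeb-undetected cell, and RBM39, a splicing factor, in 12 and 1. GPATCH8 was found in 14 apoeb-detected cells and 2 apoeb-undetected cells, with summed levels of 309 and 15.4 CPM. With the shared low counts set to 0, GPATCH8 was found in 13 and 2 cells and APLP1 in 10 and 0. TNRC6A was then found in 9 and 0 cells and RABGGTB in 9 and 1, below the presence condition of the naming rule. The other higher genes kept their counts. Most of these ratios moved with where G04 and E04 were placed. With a threshold of 20 apoeb reads, which moves both cells to the apoeb-undetected side, the log2 ratio of USP5 was 1.51 in place of 8.46, that of PKM 2.22 in place of 8.18, that of sfpq 0.72 in place of 7.69, that of RABGGTB 0.89 in place of 7.15 and that of GPATCH8 -0.41 in place of 4.24. It was 1.74 in place of 7.19 for wbp1, 1.28 in place of 4.25 for RBM39, 2.92 in place of 5.90 for SEC61B and 4.81 in place of 7.37 for TNRC6A. MAPK8IP3 kept 7.63, sumo3a 7.41 and APLP1 7.06 at that threshold.

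**Figure D3:**
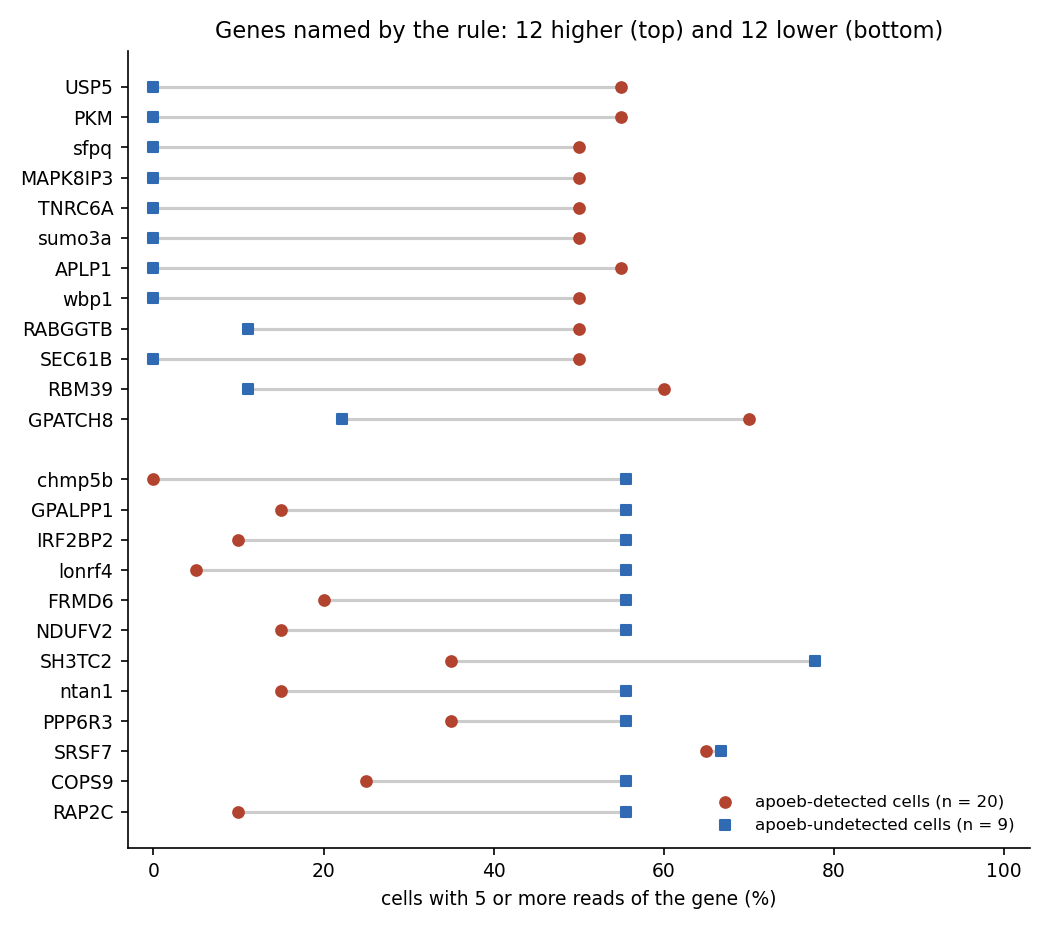
Share of cells with 5 or more reads for the 12 higher genes (upper block) and the 12 lower genes (lower block) chosen by the naming rule, for the 20 apoeb-detected cells (circles) and the 9 apoeb-undetected cells (squares). The higher genes were found in 10 to 14 apoeb-detected cells and 0 to 2 apoeb-undetected cells, and SRSF7 was found in nearly equal shares.

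The 12 lower genes came from 142 of the 7845 genes, which met the same conditions in the other direction. Presence in at least 50% of the higher side asks for fewer cells of 9 than of 20, so the counts of 226 and 142 are not comparable. chmp5b, a subunit of the ESCRT membrane-cutting complex, reached 5 reads in 0 of 20 apoeb-detected cells and in 5 of 9 apoeb-undetected cells, with summed levels of 0.181 and 125 CPM and a log2 ratio of -6.73. SH3TC2, an endosomal protein of myelinating Schwann cells whose human gene is mutated in an inherited neuropathy, ranged over 0, 0 and 1126 CPM in apoeb-detected cells, against 0, 619 and 1449 CPM in apoeb-undetected cells. It was present in 7 of 20 and 7 of 9 cells, and its log2 ratio was -2.35, or -1.78 with the threshold at 20 reads. IRF2BP2, a transcriptional corepressor, was present in 2 of 20 apoeb-detected cells and 5 of 9 apoeb-undetected cells, with a log2 ratio of -3.02. NDUFV2, a subunit of respiratory complex I, was present in 3 and 5 cells, with a log2 ratio of -2.57. FRMD6, RAP2C, PPP6R3, COPS9, ntan1, GPALPP1, lonrf4 and SRSF7 had log2 ratios of -3.12 to -2.13. Each of the 12 was present in 5 to 7 apoeb-undetected cells.

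Ranking by the share of cells instead of the ratio gave a set picked after its values were seen, which also held USP5, PKM and APLP1. FEZ1, an adaptor of kinesin transport, ranged over 0, 467 and 1605 CPM in apoeb-detected cells, against 0, 0 and 781 CPM in apoeb-undetected cells. It was found in 16 of 20 and 1 of 9 cells, and its log2 ratio was 3.64, or 2.42 at 20 reads. ATP5PO, a stalk subunit of the mitochondrial ATP synthase, ranged over 0, 421 and 1671 CPM in apoeb-detected cells, against 0, 0 and 288 CPM in apoeb-undetected cells. It was found in 18 and 2 cells, with a log2 ratio of 2.91, or 1.62 at 20 reads. The glycosyltransferase gene galnt6 was found in 16 and 1 cells, with a log2 ratio of 2.54, and ndrg3a in 13 and 1, with a log2 ratio of 1.54. At 20 reads the ratios were 2.06 for galnt6 and 1.51 for ndrg3a. GADD45G, a stress-induced regulator of growth arrest, was found in 18 and 3 cells, yet a single apoeb-undetected cell reached 3068 CPM and the summed log2 ratio was 0.85, or 0.46 at 20 reads and 2.60 without the highest cell of each side. The sides overlapped for each of these genes. With the shared low counts set to 0, FEZ1 and galnt6 were each found in 15 and 1 cells and ndrg3a in 12 and 1. ATP5PO was then found in 18 and 2 cells and GADD45G in 17 and 3.

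**Figure D4:**
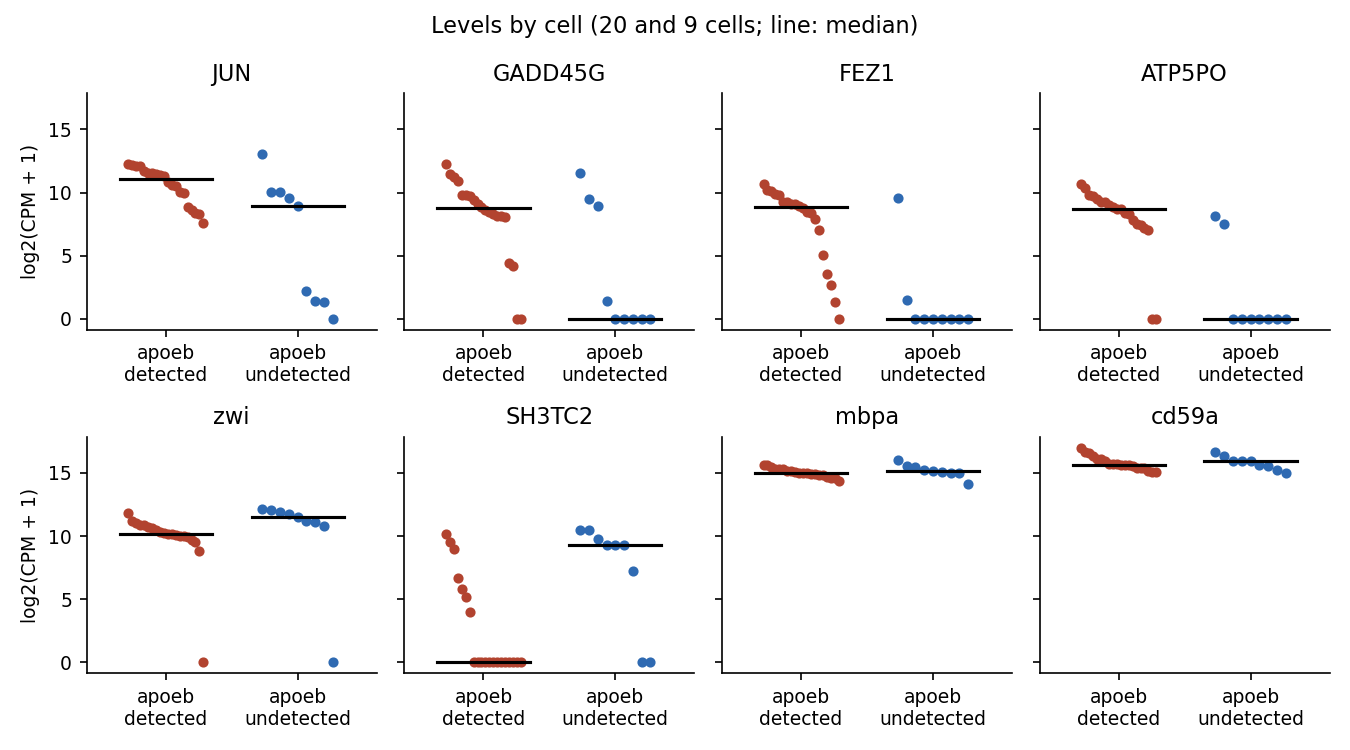
Levels of 8 genes in log2(CPM + 1), with 1 point per cell, the 20 apoeb-detected cells left and the 9 apoeb-undetected cells right in each panel, and a line at the median. JUN, GADD45G, FEZ1 and ATP5PO are at or near 0 in many apoeb-undetected cells, zwi and SH3TC2 have higher medians there, and mbpa and cd59a overlap throughout.

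Other genes of the lipoprotein pathway were, on balance, no higher in apoeb-detected cells. Of 24 measured genes of lipoproteins and lipid uptake other than apoeb, 5 (20.8%) were at least 2-fold higher in apoeb-detected cells, beside 47.7% of all genes, and 7 (29.2%) at least 2-fold lower, beside 23.6%, with a median log2 ratio of -0.51 against 0.76 over all 7845 genes. VLDLR, a receptor for apolipoprotein E, had 5 or more reads in 14 of 20 apoeb-detected cells and 6 of 9 apoeb-undetected cells, with a log2 ratio of -0.18. LRP1, another such receptor, was annotated at 2 genes with log2 ratios of -2.38 and 0.41. ABCA2, a lipid transporter of oligodendrocyte lysosomes, ranged over 0, 88.9 and 1759 CPM in apoeb-detected cells, against 5.27, 404 and 4125 CPM in apoeb-undetected cells, with a log2 ratio of -1.53. That ratio was -2.50 in plate rows F to H and -0.08 in rows B to E. CLU, clusterin, the other apolipoprotein detected widely, was found in 14 and 4 cells but had a log2 ratio of -0.92. NPC2, which moves cholesterol out of lysosomes, was found in 14 and 3 cells, with a log2 ratio of 0.76. NR1H3, a nuclear receptor that induces APOE in mammals, was found in 4 of 20 and 0 of 9 cells.

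Cholesterol synthesis genes were sparse on both sides. Of 14 measured genes, 9 (64.3%) were higher by 2-fold or more in apoeb-detected cells and 3 (21.4%) lower by as much, beside 47.7 and 23.6% of all genes. Of the 14, 6 had no read in the apoeb-undetected cells, and none was found in at least 50% of the cells. Their summed level was 921 CPM at the median in apoeb-detected cells and 415 CPM in apoeb-undetected cells, with ranges of 0 to 3390 and 1.86 to 2874 CPM. insig1, which restrains the pathway, was found in 10 of 20 apoeb-detected and 2 of 9 apoeb-undetected cells with a log2 ratio of 1.24, and within plate rows F to H its ratio was -0.33. CYP51A1 was found in 5 of 20 apoeb-detected cells, while FDPS was found in 0 of 20 and 1 of 9 cells. The 29 measured genes of myelin lipid synthesis had a median log2 ratio of 0.43, below the 0.76 of all genes, with 12 (41.4%) higher by 2-fold or more and 3 (10.3%) lower by as much. The 42 lysosomal genes had a median of 0.41. ASAH1, acid ceramidase, was the lysosomal gene with the widest gap: one of its 2 annotated genes was found in 9 of 20 and 0 of 9 cells, at least 603-fold higher on the floor of 3 reads. CTSA, a lysosomal protease that protects other lysosomal enzymes, was found in 8 and 0 cells.

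Several immediate early genes, which turn on within minutes of handling or stimulation, were found in a larger share of the apoeb-detected cells. CEBPD, KLF9 and BTG1 were not. JUN ranged over 189, 2188 and 4862 CPM in apoeb-detected cells, against 0, 497 and 8652 CPM in apoeb-undetected cells. It had 5 or more reads in 20 of 20 and 5 of 9 cells, and the summed log2 ratio was 0.58, or 2.35 without the highest cell of each side. KLF6 was found in 11 and 1 cells, a JUNB gene on chromosome 1 in 13 and 3, FOS in 12 and 3, and ATF3 in 7 and 1, of 20 and 9 cells. Their log2 ratios were 2.07, 1.83, 0.64 and 2.47 in that order. Of the 24 measured genes of the list, 12 (50%) were higher by 2-fold or more, a share close to the 47.7% of all genes. Lower by as much was 1 (4.17%), beside 23.6% of all genes. The list score was 3.27 ± 0.97 in apoeb-detected cells and 2.02 ± 1.11 in apoeb-undetected cells (SD over cells). That difference of 1.25 stood beside 0.34 over all genes with 50 reads and 0.64 over genes found in at least 50% of the cells.

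Genes of the unfolded protein response were higher somewhat more often than all genes. Of 33 measured genes, 20 (60.6%) were higher by 2-fold or more, beside 47.7% of all genes. Lower by as much were 3 (9.09%), beside 23.6%. Of the 33, 12 had no read in the apoeb-undetected cells and passed the filter of 50 reads through the apoeb-detected side alone. These shares therefore carry no result about the pathway. The median log2 ratio was 2.23 over the 33 genes and 0.38 over the 7 found in at least 50% of the cells. Of those 7, 2 were higher by 2-fold or more and none lower by as much. PDIA3, a disulfide isomerase, was found in 8 of 20 and 0 of 9 cells, at least 385-fold higher on the floor of 3 reads. DERL1, part of the machinery that exports misfolded proteins, was found in 7 and 0 cells, and calr3b, a calreticulin, in 7 and 0. Both counts held H01 and H02, which stood at 726 and 87.7 CPM for DERL1 and at 187 and 15.6 CPM for calr3b. The part of their sharing in these counts was not tested. CANX, calnexin, was found in 11 and 4 cells with summed levels of 376 and 82.5 CPM. The regulators XBP1, atf4b and DDIT3 and the chaperone HSPA5 lay nearer 0, with log2 ratios of 0.38, 0.35, -0.12 and -0.58 in that order. Sparser genes of the list went both ways. TRIB3 reached 1284 CPM in apoeb-undetected cell F06 and 382 CPM in apoeb-detected cell E02. SEL1L reached 893 CPM in apoeb-undetected cell D05 and 486 CPM in apoeb-detected cell D03. MANF reached 665 CPM in apoeb-detected cell C02 and 3.61 CPM in apoeb-undetected cell F02. Heat shock genes had a median of -0.22 over 28 genes. Of these, 4 (14.3%) were higher by 2-fold or more and 6 (21.4%) lower by as much, beside 47.7 and 23.6% of all genes.

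Interferon and antigen genes gave 12 (52.2%) higher and 2 (8.70%) lower of 23, beside 47.7 and 23.6% of all genes, with medians of 1.03 over all of them and 0.65 over the 3 found in at least 50% of the cells. ifi27.1 was found in 8 of 20 apoeb-detected cells and 0 of 9 apoeb-undetected cells, at least 83.6-fold higher on the floor of 3 reads. These 8 cells held both H01, at 184 CPM, and H02, at 25.3 CPM, and the part of their sharing was not tested. b2ml, a beta-2-microglobulin gene, was found in 18 and 9 cells with a log2 ratio of -0.62. Glycolytic genes had a median of 0.89 over 16 genes and cytoskeletal genes 0.51 over 28. Genes of axon-glia adhesion had a median of 1.54 over 16 genes, but -0.67 over the 7 found in at least 50% of the cells. Genes of DNA replication and mitosis had a median of 0.58 over 12 genes, none of them found in at least 50% of the cells. Ribosomal protein genes lay at -0.01 over 83 genes, mitochondrially encoded genes at -0.11 over 13, and nuclear genes of oxidative phosphorylation at -0.13 over 83. Markers of ependymo-radial glia had a median of 0.52 over 13 genes.

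**Figure D5:**
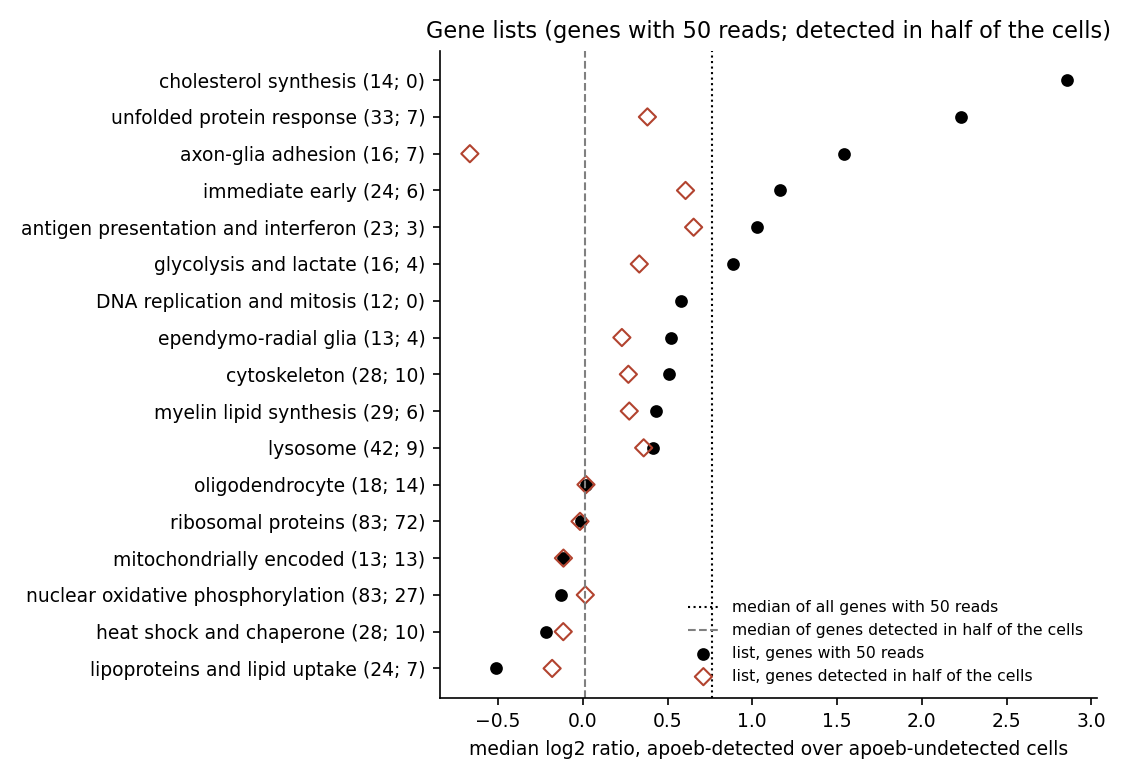
Median log2 ratio of apoeb-detected over apoeb-undetected cells for gene lists with 10 or more measured genes, over genes with 50 reads (filled circles) and over those found in at least 50% of the cells (open diamonds). Numbers in brackets count the genes of each kind, and vertical lines mark the medians of all such genes, 0.76 (dotted) and 0.01 (dashed).

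Some widely detected genes were lower on the apoeb-detected side. zwi, a myelin protein gene of teleost fish, ranged over 0, 1171 and 3725 CPM in apoeb-detected cells, against 0, 2983 and 4510 CPM in apoeb-undetected cells. It was found in 19 of 20 and 8 of 9 cells, its log2 ratio was -1.17, and the ratio was -1.12 among cells of rows B to E, and among those of rows F to H it was -1.25. EPB41L3, a membrane skeleton protein of the paranode, was found in 16 and 7 cells, also with a log2 ratio of -1.17. In the other direction GADD45B, a stress-induced relative of GADD45G, ranged over 1.91, 2093 and 13120 CPM in apoeb-detected cells, against 0, 575 and 5274 CPM in apoeb-undetected cells, with a log2 ratio of 1.11. TPT1 had a log2 ratio of 2.45 and mcl1b, which blocks cell death, 2.43, both among the genes selected after their values were seen. Without H01 and H02 the log2 ratio of zwi was -1.14 and that of GADD45B was 1.14, and without the 3 cells below 100 CPM of apoeb they were -1.32 and 1.19.

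Along the apoeb level itself no gene followed closely. Across the 29 cells, which share 1 pool and 1 plate, Spearman's rho with apoeb was taken for 184 genes found in at least 80% of cells, and its median was -0.0005. It was highest for JUN at 0.36, GJB1, a gap junction protein of myelinating cells, at 0.35, timd4 at 0.30, ID3 at 0.28 and GADD45B at 0.28. It was lowest for YBX1, an RNA-binding protein, at -0.50, RPL39 at -0.47, cd59b at -0.43, zwi at -0.42 and rpl32 at -0.41. The number of genes with a read stood at 0.37 and total reads at -0.18, so the highest gene lay no higher than gene number did. By position on the plate, 12 of 15 cells in columns 1 to 3 and 8 of 14 in columns 4 to 6 were apoeb-detected. All 12 cells of columns 1, 3 and 4 were apoeb-detected, against 8 of 17 in columns 2, 5 and 6. That second grouping was made after the values were seen. All 9 apoeb-undetected cells thus lay in columns 2, 5 and 6, and the part of plate column in the differences was not tested. Rows B to E held 11 apoeb-detected cells of 16 and rows F to H 9 of 13.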

How the data were processed

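The deposited table holds raw gene counts, 1 column for each cell. Per the submitters' processing notes, bcl2fastq 2.19.1, GSNAP, featureCounts 1.6.2 and GRCz10 were used, and the header gives version 1.6.3 for featureCounts. Reads on Ensembl release 87 exons were counted, per the file headers; counting ignored strand and asked for a mapping quality of at least 1, so genes and antisense partners cannot be told apart and near-identical copies are uncertain. No molecular identifier is named, and folds against a floor of reads cover counting error only. The interval on the share of apoeb-detected cells covers the draw of cells only. Per the labels' protocols, tissue was dissociated with papain and living cells were sorted after calcein staining.

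CPM used the total of the 32266 genes per cell, and the 92 spike-in sequences were left out. Of the gene IDs 26433 had a symbol, and the rest held 2.59% of the reads. Counts were summed per side, turned into CPM, and compared as log2 ratios with 1 CPM added, for genes with 50 or more reads over the 29 cells. A gene was called present in a cell at 5 reads. No test was run, since all cells share 1 pool of 9 cords. Named genes were the 12 largest ratios in each direction among genes with at least 50 CPM and presence in at least 50% of cells on the higher side, the same direction in the mean, the median, both plate parts (rows B to E, rows F to H) and without the highest cell, besides the examples of each list and the genes most correlated with apoeb. The members, the 27 gene lists and this rule were chosen with earlier results of these data known. Only the log2 ratio of summed counts was tested on simulated data. Those data held counting error alone, without absent transcripts in single cells or sharing between wells. Python 3.11.15 with pandas 2.3.3, edgeR 4.0.16 (TMM factors) and DESeq2 1.42.0 (size factors) were used. Alternatives were other scalings, priors, filters, thresholds, plate parts, thinning and leaving out cells. No sequence was used here.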

Additional observations from a re-analysis of the deposited data

Results flagged for a closer look

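Among the 9 apoeb-undetected cells, a single cell stood apart from the other 8 in 4 measures, by a gap test on the extreme value that flags about 1 in 20 groups by chance. E06 had the highest plp1b, 75970 CPM. D02 had the lowest total, 2.665e+05 reads. F02 had the most genes with a read, 2577. F06 had the largest share of mitochondrial reads, 4.63%. The 20 apoeb-detected cells were too many for this test. No cell of the apoeb-undetected side was flagged in more than 1 measure, and leaving out any of them kept both counts of genes at a 2-fold difference within 1.5 times of the reported values.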

How the results depend on the processing

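The count of genes at least 2-fold higher, 3740, was 1301 with a filter of 500 reads and 62 over genes found in at least 50% of the cells. The count at least 2-fold lower, 1854, was 725 without the highest cell of each side, 899 with a filter of 500 reads and 43 over genes found in at least 50% of the cells. With 1 cell left out in turn, these counts ran between 3583 and 3954 and between 1769 and 1899. Other scalings, priors, thresholds and plate parts kept both within 1.5 times. The median of all genes, 0.76, shifted by 2.82 in plate rows F to H, 0.64 with a 1-read and -0.37 with a 20-read apoeb threshold, -0.67 with a filter of 500 reads, -0.64 with a filter of 1 read and 0.39 with TMM factors, and by at most 0.20 in size under the other settings. The medians of these sparse lists reversed: OPC, 4.35 as reported, -0.71 and axon-glia adhesion -0.67 over genes found in at least 50% of the cells, axon-glia adhesion -0.36 and neuron -0.49 with a filter of 500 reads, and neutrophil and lymphocyte -0.00337 with a filter of 1 read. The erythrocyte median, 1.40 over 2 genes, was -0.50 without the highest cells, -0.78 thinned, -0.99 with a filter of 500 reads and over genes found in at least 50% of the cells, -2.45 at a 20-read threshold, -0.32 in rows B to E, -0.77 without cells between 5 reads and 100 CPM of apoeb, and -0.89 without cell G04. At a 20-read threshold GPATCH8 was -0.41, mycla -1.35, EGFL7 -2.31 and hemgn -4.49. At a 1-read threshold akap9 was 0.30, STAMBPL1 0.11 and PLCL1 0.052. DGLUCY was 1.01 and ELOVL7 0.22 in rows B to E, insig1 -0.33 and ITPR2 1.86 in rows F to H, and between -3.27 and 1.201 with 1 cell left out, positive without cell E05. The causes were not tested. The settings on genes found in at least 50% of the cells, on H01 and H02, on cells below 100 CPM and on shared low counts were chosen after seeing the data. No paired analysis was possible because the replicate numbers only follow the order of the samples and all cells come from 1 pool. At these depths the floor of 3 reads over a side was 0.272 CPM in apoeb-detected cells and 0.585 CPM in apoeb-undetected cells. It is a floor on summed counts, covers counting error only and sets no limit for cells that were not sequenced.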
